A study of Homo sapiens with 8 samples.

Results

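The interleukin 1 (IL1) system was examined as a list of 10 genes, chosen with earlier results of these data known. They were the ligands IL1A, IL1B, IL18 and IL33, the antagonist IL1RN and the receptors IL1R1, IL1R2 and IL1RAP. The signaling kinase family member IRAK2 and the protease CASP1 completed the list. All 10 were on the array, each with 1 transcript cluster (the probe group that stands for a gene), among 18417 genes measured. RNA was profiled in ZR-75-1 cells, an estrogen receptor positive breast cancer cell line with luminal epithelial traits, on 8 Affymetrix arrays with 2 arrays for each of 4 lines. Parental cells carried no construct, the shGFP line carried a control shRNA against GFP, and shEI24 clone 1 and shEI24 clone 2 carried shRNA against EI24, an endoplasmic reticulum protein gene first described as induced by etoposide. The study was concerned with whether less EI24 alters inflammatory gene expression and cell identity in these cells. The sample titles name no chemical treatment. Of the paired numbers in each shEI24 label, the first was read as naming the clone and the other as naming the replicate array. Each shEI24 line is 1 clone, so what is particular to a clone and what follows from the shRNA cannot be told apart within a line. Whether the duplicate arrays of a line were grown as separate cultures is not stated, and the p-values therefore reflect array-to-array spread that could be purely technical.

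IL1A and IL1B bind the receptor IL1R1, which then recruits the co-receptor IL1RAP, and the pair signals through MYD88 and IRAK kinases to NF-κB and MAP kinases. IL1RN occupies IL1R1 without signaling, and IL1R2 is a decoy that binds the cytokine without a signaling domain. IL1B and IL18 are made as precursors that the inflammasome protease CASP1 cleaves, whereas IL1A and IL33 act as alarmins released from damaged cells, and IL1A is active as its precursor.

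The targeted gene was checked first. EI24 had log2 values of 8.64 and 8.43 in clone 1, 9.25 and 9.19 in clone 2, 11.97 and 11.91 in shGFP cells, and 12.08 and 12.09 in parental cells. The shEI24 arrays lay below all control arrays, and the mean of the clones minus shGFP was -3.06 (SE 0.083, limma adjusted p = 8.57e-09). The luminal traits of ZR-75-1 cells were checked through markers, which averaged 11.49 to 11.57 in the control arrays and 8.38 to 8.51 in the shEI24 arrays. All 14 of the luminal epithelial markers measured were lower in the shEI24 lines, with a median log2 difference of -2.87. Over all genes, 29% were lower and 26.8% higher than in shGFP cells at a limma adjusted p under 0.05. The estrogen receptor gene ESR1 averaged 6.02 in clone 1 and 5.92 in clone 2 against 10.77 in shGFP and 10.64 in parental cells. The E-cadherin gene CDH1 averaged 6.11 and 6.29 in the clones against 12.31 and 12.33 in the control lines. Of 14 mesenchymal markers 8 were higher and 6 did not pass, and vimentin (VIM) averaged 13.15 and 13.25 in the clones against 7.0 and 7.34 in the control lines. In ESR1, CDH1 and VIM the shEI24 arrays thus went against the luminal traits of ZR-75-1 cells. Every other difference between those lines and the controls given here stands beside that one. What part it had in the results was not tested. In bulk RNA, a change in the number of cells of a type and a change in RNA per cell cannot be told apart.

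**Figure D1:**
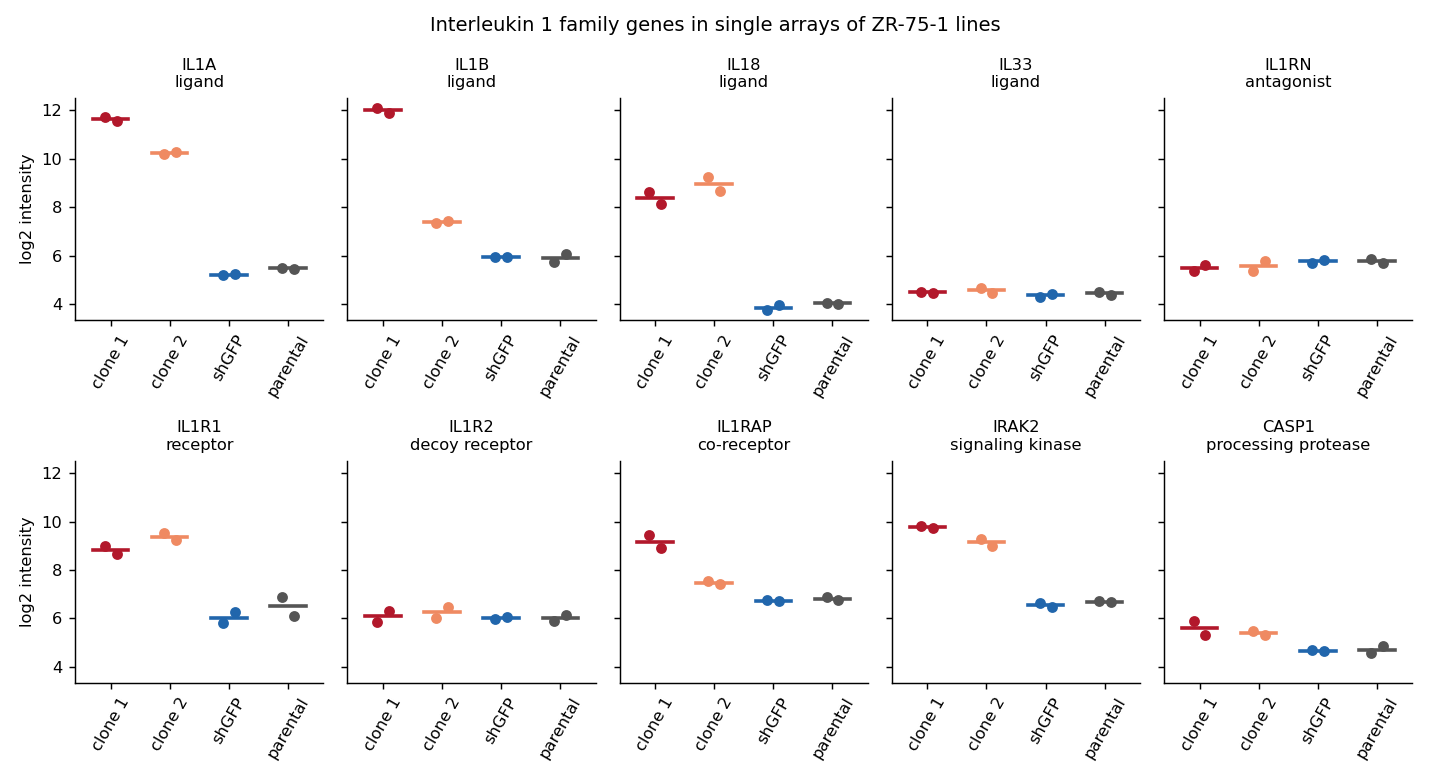
Log2 intensity of the 10 genes (1 panel each) in single arrays of the 4 lines. Points are arrays (2 per line) and horizontal bars are line means. In IL1A, IL1B, IL18, IL1R1, IL1RAP, IRAK2 and CASP1 all 4 shEI24 arrays lie above all 4 control arrays, and IL1B separates clone 1 (12.10 and 11.91) from clone 2 (7.34 and 7.44).

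Of the 10 genes, 7 were higher in the shEI24 lines than in shGFP cells, none was lower and 3 did not pass the test, where a gene was called at a limma adjusted p under 0.05 over all genes. Among all genes the same rule called 26.8% higher and 29% lower, so calls in this comparison were common. The median log2 difference of the 10 genes was 2.25, beside 0.08 over all genes. The 7 genes were also those whose 4 shEI24 arrays all lay above the 4 control arrays, an arrangement found in 23.8% of all genes, with 26.9% lying wholly below. The same counts of 7 and 3 were obtained with parental cells as the control, beside 25.1% of all genes higher and 30.8% lower in that comparison. Values near the floor of an array hold mostly background and compress differences. The control lines averaged between percentiles 0.624 and 17.9 of the genes for IL1A, IL1B, IL18 and CASP1. For IL1R1, shGFP cells were at percentile 19.1 and parental cells at percentile 26.2. The differences of these genes may therefore be understated, which was not tested. Levels are compared only within a gene, because probes differ in how brightly they report.

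The promoter sequences of IL1A and IL1B are shown because these neighboring ligand genes both rose but differed between the clones. The 250 bases before the annotated start (for IL1A, the first of its 2 starts) were taken from RefSeq on GRCh38.p14, minus strand, 5′ to 3′, at chr2:112784494-112784743 for IL1A and chr2:112836780-112837029 for IL1B. Capitals mark matches to an AP-1 site (TGANTCA) or a C/EBP site (TTNNGNAA) on either strand.
IL1A: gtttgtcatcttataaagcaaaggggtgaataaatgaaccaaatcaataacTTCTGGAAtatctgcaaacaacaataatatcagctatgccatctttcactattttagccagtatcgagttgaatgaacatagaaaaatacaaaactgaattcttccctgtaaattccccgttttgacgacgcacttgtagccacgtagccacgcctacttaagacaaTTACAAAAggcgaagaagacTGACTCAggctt
IL1B: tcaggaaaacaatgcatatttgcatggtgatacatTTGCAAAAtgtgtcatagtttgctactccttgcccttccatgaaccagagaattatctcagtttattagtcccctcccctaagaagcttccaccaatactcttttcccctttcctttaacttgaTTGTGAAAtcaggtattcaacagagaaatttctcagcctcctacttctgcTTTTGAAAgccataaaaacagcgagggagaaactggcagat
The IL1A stretch held an AP-1 match at -12 to -6 and C/EBP matches at -199 to -192 and -32 to -25, counted from the start. A further AP-1 match of IL1A lay after the start, at 39 to 45. The IL1B stretch held C/EBP matches at -215 to -208, -91 to -84 and -41 to -34, and the letters of the AP-1 site were not in its window. In windows from 250 bases before to 50 after the start, 7.71% of 35116 promoters of 27305 genes held the AP-1 letters and 36.8% the C/EBP letters. The NF-κB consensus by name was in 5.91% of all windows and in none of the 16 windows of the 8 genes of this family that the table holds. No letters of these motifs overlapped each other in the printed stretches. A match describes the sequence and identifies no bound site.

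IL1A, the alarmin ligand of IL1R1, was far higher in both clones than in the control lines. Its log2 values were 11.74 and 11.57 in clone 1, 10.21 and 10.28 in clone 2, 5.19 and 5.24 in shGFP cells and 5.49 and 5.46 in parental cells. Clone 1 was the higher of the clones, no clone array overlapped a control array, and the arrays of a line differed little. The mean of the clones exceeded shGFP by 5.74 (SE 0.08, limma adjusted p = 5.58e-10), a 53.4-fold difference on the measured scale. In mean level IL1A moved from percentile 8.68 of the genes in shGFP cells to percentile 97.4 in clone 1 and 87.8 in clone 2. The lines ranked clone 1, clone 2, parental and shGFP, and the last pair was not separated by the test.

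IL1B, the secreted ligand that needs cleavage, rose in both clones but by very different amounts. Its log2 values were 12.10 and 11.91 in clone 1, 7.34 and 7.44 in clone 2, 5.96 and 5.94 in shGFP cells and 5.74 and 6.06 in parental cells. All clone 1 arrays were far above all clone 2 arrays, which in turn lay above every control array. The mean of the clones minus shGFP was 3.75 (SE 0.11, limma adjusted p = 1.05e-08), and it averages a large and a small difference. When each line was counted as 1 replicate, with 2 clones against shGFP and parental cells, the difference of 3.77 no longer passed (limma adjusted p = 0.123).

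IL18, a ligand of a separate receptor pair that is also cleaved by CASP1, was near the bottom of the array in the control lines and mid-range or above in the clones. Its log2 values were 8.62 and 8.13 in clone 1, 9.24 and 8.68 in clone 2, 3.76 and 3.95 in shGFP cells and 4.04 and 4.02 in parental cells. Clone 1 lay below clone 2 by little, and both stood clear of the controls. The mean of the clones exceeded shGFP by 4.81 (SE 0.17, limma adjusted p = 4.45e-08), with the controls under percentile 1 of the genes.

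IL33, an alarmin ligand of the receptor IL1RL1, stayed among the dimmest genes in every line, between percentiles 2.29 and 2.96. The arrays gave IL33 log2 values of 4.51 and 4.46 in clone 1, 4.68 and 4.46 in clone 2, 4.28 and 4.42 in shGFP cells and 4.48 and 4.39 in parental cells. The shEI24 and control arrays overlapped. The difference from shGFP was 0.17 with a 95% interval of -0.03 to 0.38 (limma adjusted p = 0.129). At such intensities a difference is compressed, and the data bound the measured value only.

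IL1RN, the receptor antagonist, did not rise with the agonists. Its log2 values were 5.37 and 5.63 in clone 1, 5.38 and 5.77 in clone 2, 5.70 and 5.83 in shGFP cells and 5.85 and 5.71 in parental cells. The groups overlapped through the second array of clone 2. The difference from shGFP was -0.23 with a 95% interval of -0.51 to 0.06 (limma adjusted p = 0.154). Without clone 2 replicate 2 the difference was -0.32 and passed (limma adjusted p = 0.0356), so the call rested on that array.

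IL1R1, the signaling receptor, was higher in both clones. On the log2 scale IL1R1 had 8.99 and 8.66 in clone 1, 9.52 and 9.23 in clone 2, 5.82 and 6.24 in shGFP cells and 6.90 and 6.08 in parental cells. The clones did not overlap the control lines, and the parental arrays spread most. Relative to shGFP the clones averaged 3.07 higher (SE 0.22, limma adjusted p = 3.51e-06), and relative to parental cells 2.61 higher.

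IL1R2, the decoy receptor, gave overlapping values in all lines. In log2 values IL1R2 had 5.85 and 6.32 in clone 1, 6.01 and 6.47 in clone 2, 5.98 and 6.04 in shGFP cells and 5.87 and 6.12 in parental cells. Replicates of a clone differed by more than the lines did. The difference from shGFP was 0.15 with a 95% interval of -0.22 to 0.53 (limma adjusted p = 0.454).

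IL1RAP, the co-receptor shared by IL1R1 and other receptors of the family, rose mainly in clone 1. IL1RAP had log2 values of 9.43 and 8.89 in clone 1, 7.53 and 7.41 in clone 2, 6.76 and 6.70 in shGFP cells and 6.88 and 6.74 in parental cells. Clone 1 stood above clone 2, and clone 2 stood above the controls by less than 1 on the log2 scale. The mean of the clones exceeded shGFP by 1.59 (SE 0.14, limma adjusted p = 1.11e-05). With each line as 1 replicate the difference of 1.55 did not pass (limma adjusted p = 0.100).

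IRAK2, a kinase family member of the MYD88 complex, was raised in both clones, by more in clone 1. The log2 values of IRAK2 were 9.80 and 9.74 in clone 1, 9.28 and 9.0 in clone 2, 6.63 and 6.46 in shGFP cells and 6.70 and 6.67 in parental cells. The clones lay above the controls without overlap, clone 1 being slightly the higher. On average the clones exceeded shGFP by 2.91 (SE 0.10, limma adjusted p = 2.88e-08).

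CASP1, the protease that cleaves IL1B and IL18, rose in both clones and remained dim. CASP1 had log2 values of 5.88 and 5.30 in clone 1, 5.48 and 5.31 in clone 2, 4.70 and 4.63 in shGFP cells and 4.55 and 4.86 in parental cells. The arrays did not overlap, but the clone averages were only at percentiles 11.3 and 9.2 of the genes. The mean of the clones exceeded shGFP by 0.83 (SE 0.16, limma adjusted p = 0.00178), which is under a 2-fold difference. CARD16, whose sequence is closely similar to part of CASP1, differed by 0.77 (limma adjusted p = 0.00364), and whether their probes share transcripts was not tested.

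**Figure D2:**
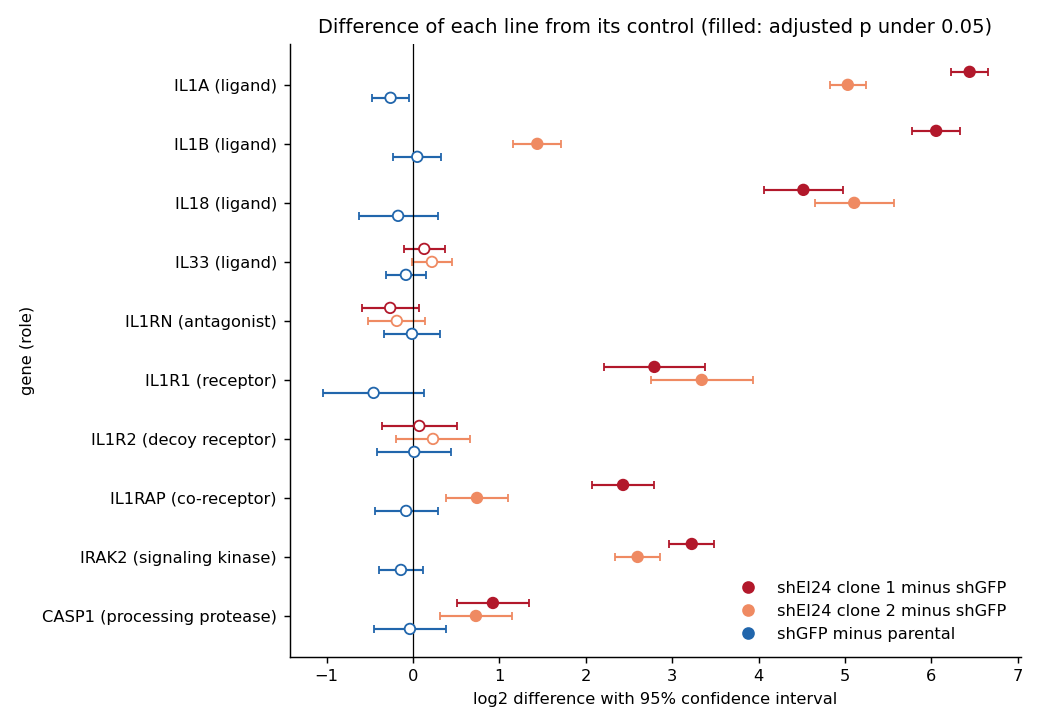
Log2 difference with 95% confidence interval for each gene, for clone 1 minus shGFP (dark red), clone 2 minus shGFP (orange) and shGFP minus parental cells (blue). Filled points had a limma adjusted p under 0.05. The intervals of the clones are far apart for IL1B (6.06 and 1.44), and every shGFP minus parental point is open.

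Each clone was also set against shGFP separately, and these comparisons share the shGFP arrays. In clone 1, 7 genes were higher and 3 did not pass, beside 23% of all genes higher and 26.6% lower. In clone 2 the counts were also 7 and 3, beside 25.2% of all genes higher and 27.8% lower. IL1A exceeded shGFP by 6.44 in clone 1 and by 5.03 in clone 2. For IL1B the log2 differences were 6.06 and 1.44, and for IL1RAP they were 2.43 and 0.74. For IRAK2 they were 3.23 and 2.6, and for CASP1 0.92 and 0.73. In IL18 and IL1R1 clone 2 had the larger values, with 4.52 and 5.11 for IL18 and 2.79 and 3.34 for IL1R1. IL33, IL1RN and IL1R2 passed in neither clone. With a 2-fold threshold added, 6 genes were higher in clone 1, without CASP1, and 5 in clone 2, without IL1RAP and CASP1. The shares of all genes given above are without this threshold.

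The clones were then tested against each other. Clone 1 was higher for 4 of the 10 genes, none was lower and 6 did not pass, beside 9.29% of all genes higher and 5.88% lower in clone 1. IL1B differed by 4.62 (SE 0.12, limma adjusted p = 4.67e-07), the largest excess of clone 1 over clone 2 among the 18417 genes, followed by the cancer-testis genes SSX1 at 4.4 and SPANXB1 at 4.17. IL1RAP differed by 1.69 (SE 0.16, limma adjusted p = 0.000362). IL1A differed by 1.41 (SE 0.09, limma adjusted p = 6.24e-05), and IRAK2 by 0.63 (SE 0.11, limma adjusted p = 0.0071). IL18 was -0.59 in clone 1 relative to clone 2 with a 95% interval of -1.05 to -0.13, but its limma adjusted p was 0.0905. The difference of IL1R1 was -0.55, with a 95% interval of -1.14 to 0.04 (limma adjusted p = 0.218). For CASP1 the interval was -0.22 to 0.61. Intervals were -0.32 to 0.15 for IL33, -0.41 to 0.25 for IL1RN and -0.59 to 0.27 for IL1R2.

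The shGFP and parental lines gave the background of a control shRNA. None of the 10 genes passed between them in either direction with limma, beside 3.21% of all genes higher and 7.44% lower in shGFP cells. At an unadjusted p under 0.05, 1 gene passed with limma and 1 with the methods' t-test, IL1A in both. The share of all genes at that threshold was not computed. IL1A was -0.26 in shGFP relative to parental cells (95% interval -0.47 to -0.05, limma adjusted p = 0.118), and IL1R1 was -0.46 (limma adjusted p = 0.339).

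Both ligand and receptor genes of the family sit in rows on chromosome 2, which allowed the neighbors to be read in genome order. In the receptor row of 6 genes from IL1R2 to IL18RAP, 4 were higher in the shEI24 lines and 2 did not pass. Over all genes 26.8% were higher and 29% lower in this comparison with shGFP cells. IL1RL1, the IL33 receptor, exceeded shGFP by 1.07 in clone 1 and 2.55 in clone 2. Clone 1 was lower than clone 2 for IL1RL1 by a log2 difference of -1.48 (limma adjusted p = 0.000132), the opposite direction to IL1B. IL18R1, the IL18 receptor, differed by 0.84 and IL1RL2, the IL36 receptor, by 0.52, while the decoy IL1R2 and the accessory chain IL18RAP (0.03) did not pass. In the row of 9 genes from IL1A to IL1RN, 3 were higher and 6 did not pass, beside the same shares of all genes. IL36G, an epithelial IL36 ligand, differed by 0.29 (limma adjusted p = 0.0325), with 0.58 in clone 1 and -0.01 in clone 2, and it was 0.16 against parental cells (limma adjusted p = 0.183). The other 5 genes between IL1B and IL1RN did not pass, with differences from 0.00 for IL36A to 0.21 for IL36B.

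**Figure D3:**
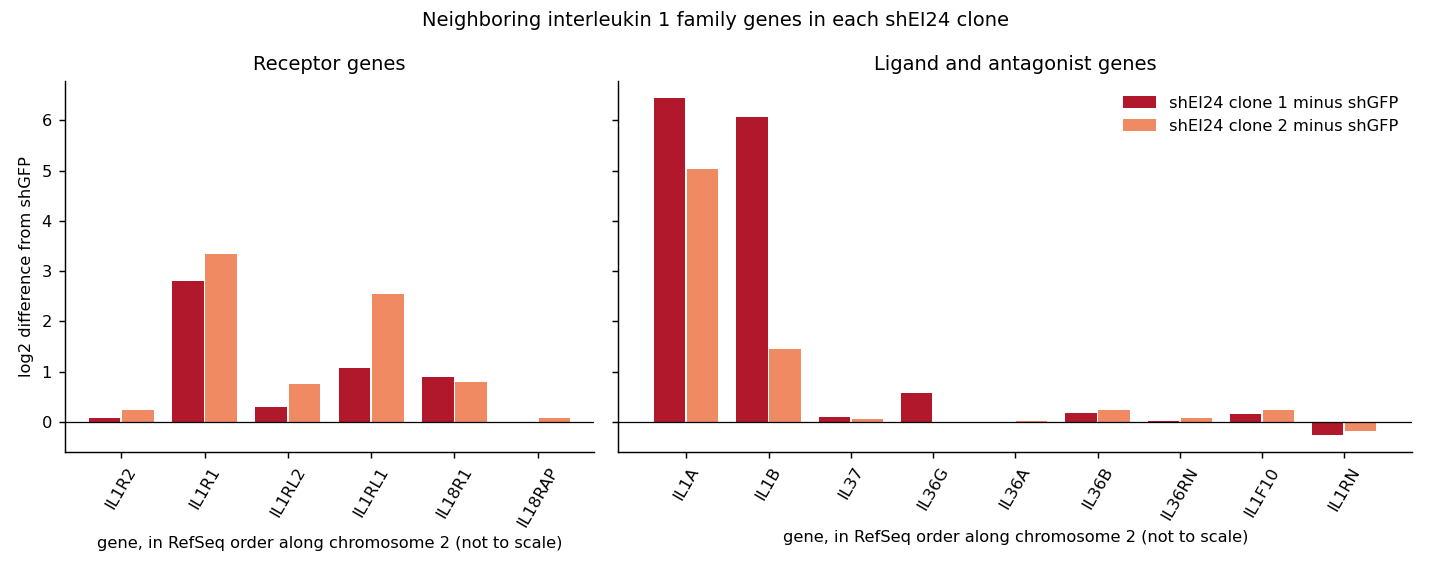
Log2 difference from shGFP of clone 1 (dark red) and clone 2 (orange) for the family genes in RefSeq order along chromosome 2, not to scale. In the ligand panel the tall bars are at IL1A (6.44 and 5.03) and IL1B (6.06 and 1.44), and in the receptor panel at IL1R1 (2.79 and 3.34) and IL1RL1 (1.07 and 2.55).

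The other genes of the pathway were read from lists of known members, chosen with earlier results of these data known. Their counts stand beside 26.8% of all genes higher and 29% lower than in shGFP cells. Among 6 other ligands 1 was higher (IL36G) and 5 did not pass, with a median log2 difference of 0.13. Of 8 other receptors and the binding protein, 4 were higher, 1 lower and 3 did not pass (median 0.28), and 1 was called higher when the genes under percentile 25 of mean intensity were left out. The highest was IL1RAPL1, a neuronal member of the receptor family, at 2.48, and the lower gene was SIGIRR, an inhibitory receptor, at -1.33.

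Of 15 receptor-proximal signaling genes, 8 were higher, 1 lower and 6 did not pass (median 0.33). Against parental cells 6 of the 15 were higher, with a median of 0.11. In that comparison 25.1% of all genes were higher and 30.8% lower. IRAK3, an inhibitory IRAK, exceeded shGFP by 3.68, and the ubiquitin ligases PELI1 and PELI2 by 2.74 and 1.02. TOLLIP, an adaptor that restrains IRAK1, was higher by 0.97. The kinase IRAK1 was lower against both controls, at -0.56 from shGFP and -1.10 from parental cells (limma adjusted p = 0.000792 and 9.26e-06). For IRAK1, shGFP cells were themselves at -0.54 relative to parental cells (limma adjusted p = 0.0156). The adaptor MYD88 differed by 0.33 from shGFP and by -0.22 from parental cells (limma adjusted p = 0.00489 and 0.0319), so its direction depended on the control.

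In the IKK and MAP kinase branches, 9 of 17 genes were higher, 2 lower and 6 did not pass (median 0.28). NFKBIE, an inhibitor of NF-κB, rose by 1.67, the transcription factor gene JUN by 1.37 and NFKB1 by 1.01. FOS, the AP-1 partner of JUN, was lower at -0.93, and the MAP kinase kinase MAP2K6 at -1.0. JUN and FOS also differed between shGFP and parental cells, by 0.91 and -0.78. Against parental cells the shEI24 lines kept these directions, with 2.28 for JUN and -1.71 for FOS.

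Inflammasome sensors, adaptors and caspases were higher in 12 of 19 cases, lower in 2, and 5 did not pass (median 0.32). Of the 19, 6 lay under percentile 25 of the genes in all lines. With the genes under percentile 25 of mean intensity left out, 8 were called higher. The DNA sensors IFI16 and AIM2 exceeded shGFP by 5.69 and 3.32. CASP4, the caspase that senses bacterial lipopolysaccharide in the cytosol, rose by 4.77, and the pore protein gene GSDME by 4.63. The adaptor PYCARD, which links sensors to CASP1, was lower at -1.07, and the sensor NAIP at -1.02. Without shGFP replicate 1 the number of higher genes fell from 12 to 8. Of 15 genes of processing and release, 6 were higher, 3 lower and 6 did not pass (median 0.25). Over all genes the shares were 26.8% higher and 29% lower. Against parental cells 5 of the 15 were higher, with a median of 0.03. In that comparison 25.1% of all genes were higher and 30.8% lower. Relative to shGFP, CAPN2, a calpain subunit of the type that cleaves IL1A, rose by 4.57 and the channel PANX1 by 1.41. HAX1, which binds IL1A in the cell, was at -1.42.

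**Figure D4:**
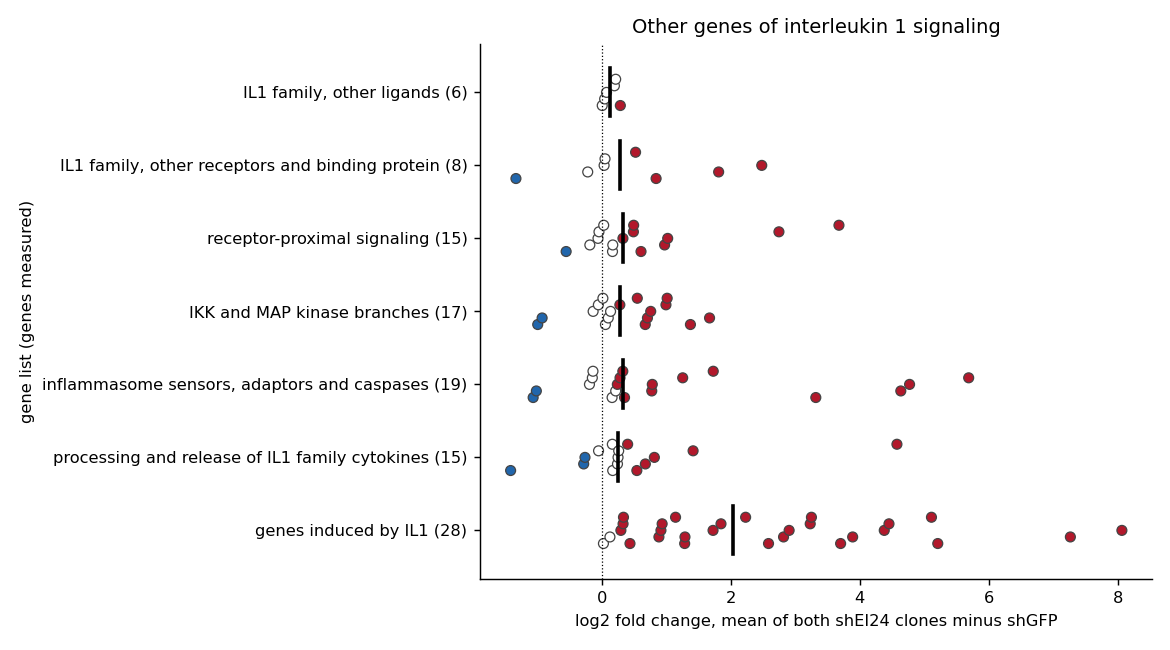
Log2 difference, mean of both clones minus shGFP, of each measured gene in the 7 pathway lists (number measured in brackets). Red points were higher and blue points lower at a limma adjusted p under 0.05, white points did not pass, and the black bar is the list median. The median of the genes induced by IL1 is 2.04, and the medians of the other lists lie between 0.13 and 0.33.

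Genes known to be induced by IL1 in other cells were mostly higher. Of 28 measured, 26 were higher, none was lower and 2, VCAM1 (0.12) and CCL7 (0.02), did not pass, with a median of 2.04 beside 0.08 over all genes. The collagenase MMP1 exceeded shGFP by 8.06, the prostaglandin synthase PTGS2 by 7.26, the cytokine IL6 by 5.21 and the NF-κB inhibitor TNFAIP3 by 5.11. Against parental cells 23 of the 28 were higher, beside 25.1% of all genes. MMP1 was itself lower in shGFP than in parental cells by a log2 difference of -0.95, and it exceeded parental cells by 7.11.

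The clones did not share the same height for all of these genes. Between the clones 12 of the 28 were higher in clone 1, 1 was higher in clone 2 (TNFAIP3, at -0.73 for clone 1 minus clone 2) and 15 did not pass, with a median of 0.22, beside 9.29% of all genes higher and 5.88% lower in clone 1. Complement C3 exceeded clone 2 by 2.77, the hyaluronan-binding protein gene TNFAIP6 by 2.56, the chemokines CCL20 and CXCL2 both by 2.36, and IL6 by 1.85. MMP1 and the cytokine LIF differed by 0.01 and 0.00.

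**Figure D5:**
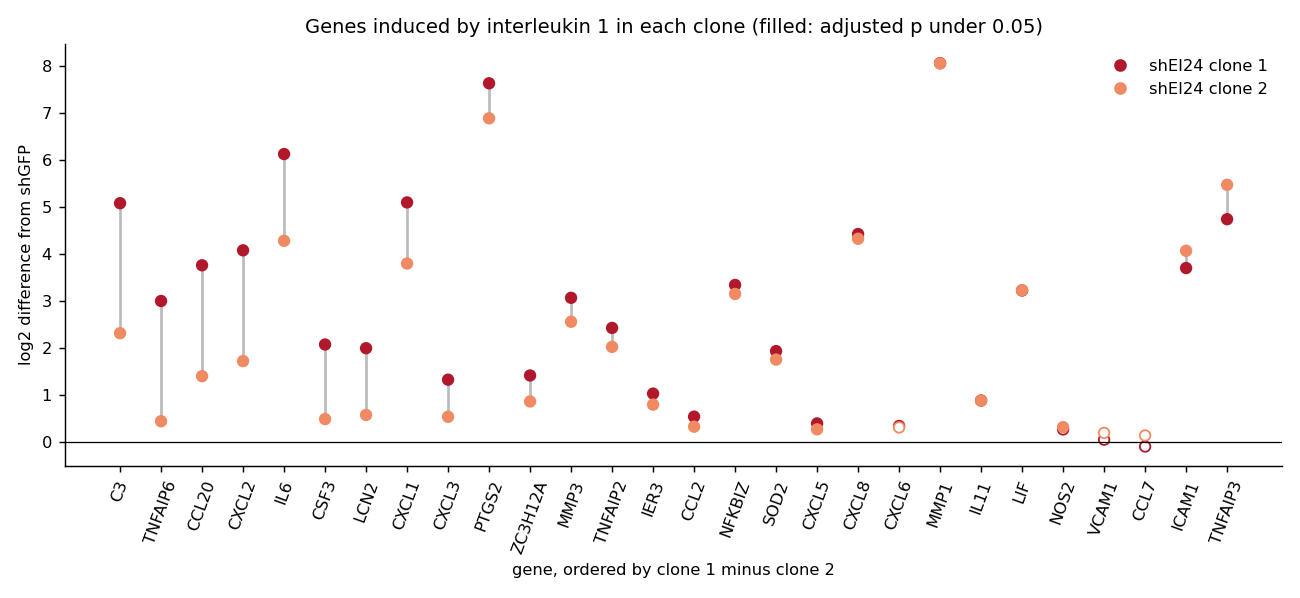
Log2 difference from shGFP in clone 1 (dark red) and clone 2 (orange) for the 28 genes induced by IL1, ordered by clone 1 minus clone 2. Filled points had a limma adjusted p under 0.05, and gray lines join the clones. C3 stands at 5.08 and 2.32 at the left end, MMP1 at 8.07 and 8.06 without a visible gap, and TNFAIP3 at 4.74 and 5.48 at the right end.

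The genes whose profiles were most like those of 3 members were listed over the 8 arrays, by the root mean square difference of log2 values after each gene was centred on its own mean. For IL1A they were IL6 (0.28), SNAI2 (0.30), PTX3 (0.32), GLIPR1 (0.34) and CDCP1 (0.37). IL6 averaged 11.87 and 10.02 in clones 1 and 2, against 5.74 for shGFP and 5.62 for parental cells, the same order of clones as IL1A. For IL1B they were SPANXB1 (0.27), SSX1 (0.53), C3 (0.66), CXCL2 (0.94) and CALB2 (0.98). SPANXB1 averaged 11.92 in clone 1 and 7.75 in clone 2, close to the step of IL1B between the clones. For IRAK2 they were NPAS2 (0.10), TIMP2 (0.12), CALD1 (0.12), OSMR (0.15) and PDE10A (0.16).

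Leukocytes are a common source of IL1B and CASP1, so their markers are given beside these genes. Of 14 leukocyte markers 3 were higher in the shEI24 lines (CD68, CD14 and PTPRC) and 11 did not pass, with a median of 0.20. Among all genes 26.8% were higher and 29% lower in the same comparison, with a median of 0.08. The pan-leukocyte gene PTPRC averaged 4.38 and 4.47 in the clones against 4.21 and 4.30 in shGFP and parental cells. CD14 averaged 7.79 and 7.44 against 6.73 and 6.72, and the lysosomal CD68 averaged 11.94 and 11.84 against 7.94 and 8.08. The mean over the markers was 6.51 to 6.66 in the shEI24 arrays and 6.07 to 6.24 in the control arrays, and none of them passed between the clones. The part of these markers in the results was not tested.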

How the data were processed

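Total RNA of the 8 samples was hybridised to Affymetrix arrays from an input of 300 ng. For each transcript cluster and array the authors deposited a log2 intensity. The submitters' processing notes name the tools GCOS and RMA, each with its version not given in the sources used here. In RMA the background is removed, arrays are brought to a common distribution by quantiles, and probes are combined into a value per cluster. Array medians were 7.28 to 7.39, and the number of arrays limits the precision. Of 33297 clusters, 19460 had 1 gene symbol, 1754 had several and 12083 were unnamed here. The brightest cluster of each gene was kept, which set aside 1043 and left 18417 genes. Some listed genes are not analysed here.

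Comparisons were fitted with limma 3.58.1 in R 4.3.3 (lmFit, contrasts.fit and eBayes) from a mean for each of the 4 lines, with 4 residual degrees of freedom. The Benjamini-Hochberg adjustment ran over all 18417 genes, and calls were made under 0.05. The 10 genes and the 10 lists, with 161 genes of which 150 were measured, were chosen with earlier results of these data known. All 10 genes were named, with up to 4 genes of the largest change per pathway list, up to 2 that moved against it, and the 5 most similar profiles of IL1A, IL1B and IRAK2. Other genes given, such as ESR1, CDH1, VIM, the leukocyte markers, MYD88, CARD16, and the clone differences of induced genes, were chosen after their values were seen. Alternatives were other controls, each line as 1 replicate, a replicate block, another variance model, second normalization or centring, a filter on dim genes, all clusters, a 2-fold threshold, the methods' t-test, and leaving out each array. The replicate block with parental cells as control was added after seeing the data. Same-numbered arrays of different lines deviated together, with correlations from 0.25 to 0.59 over the 6 pairs of lines. Promoter windows came from the RefSeq table of GRCh38.p14, which held 8 of the 10 genes.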

Additional observations from a re-analysis of the deposited data

Results flagged for a closer look

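The 2 clones differed in 4 of the 10 genes by the test of clone 1 against clone 2. Clone 1 exceeded clone 2 by 4.62 on the log2 scale for IL1B, by 1.69 for IL1RAP, by 1.41 for IL1A and by 0.63 for IRAK2, and both arrays of clone 1 lay above both arrays of clone 2 in each of these genes. EI24 itself averaged lower in clone 1 (8.64 and 8.43) than in clone 2 (9.25 and 9.19), and what part this had in the differences was not tested.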

How the results depend on the processing

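None of the 10 genes changed direction while called under the 21 alternatives, but among the list genes MYD88 was called higher against shGFP (0.33) and lower against parental cells (-0.22). IL1A, IL18, IL1R1 and IRAK2 were higher in the shEI24 lines than in shGFP cells under every alternative that tested them. With each line as 1 replicate, IL1B (3.77, adjusted p = 0.123) and IL1RAP (1.55, 0.100) no longer passed. With the methods' t-test IL1B (3.75, 0.217) and IL1RAP (1.59, 0.178) did not pass, and 0 of 10 genes passed between the clones, although 4 had an unadjusted p under 0.05. Its adjusted p between the clones was 0.176 for IL1A (1.41), 0.134 for IL1B (4.62), 0.247 for IL1RAP (1.69) and 0.306 for IRAK2 (0.63). A 2-fold threshold dropped CASP1 (0.83), IRAK2 between the clones (0.63), CASP1 in clone 1 (0.92), and IL1RAP (0.74) and CASP1 (0.73) in clone 2. The methods' t-test also dropped CASP1 in clone 1 against shGFP (0.92, 0.170). Trend and robust variance made IL18 lower in clone 1 (-0.59, 0.0364), so that 1 gene was lower there. After a second quantile normalization IL33 passed at 0.24 (0.0333). Leaving out 1 array at a time, IL18 between the clones ranged from -0.87 to -0.31 and passed without clone 1 replicate 1 (-0.83, 0.0468) and without clone 2 replicate 2 (-0.87, 0.0275). IL1RN against shGFP ranged from -0.32 to -0.13 and passed without clone 2 replicate 2. The number of genes lower was then 0 or 1 in both comparisons. The cause of these changes was not tested. With the genes under percentile 25 of mean intensity left out, IL18, IL33, IL1RN, IL1R2 and CASP1 were not tested. The alternative with a dimmer cluster was not run, since each gene had 1 cluster.

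With the replicate number as a replicate block, the 10 genes kept their calls: IL1B remained 3.75 (adjusted p = 7.99e-08) and the counts stayed at 7 higher against shGFP and 4 higher in clone 1 than in clone 2. The block called 2 of the other ligands higher in place of 1, and 9 genes of processing and release in place of 6. No other list's count moved by over 1.5 times with the block. Over all alternatives the other ligands had 0 to 2 genes called, and the other receptors went from 4 to 1 with the dim genes left out. With parental cells as control and the same block, 7 genes were higher. The shares of all genes were not computed with the block.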
